A study of Mus musculus with 16 samples.

Results

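The complement components and regulators examined here were 9 genes taken by symbol from the 51912 genes of a read-count table of mouse retinal pigment epithelium (RPE), the pigmented layer behind the photoreceptors. They were the C1q subunit genes C1qa, C1qb and C1qc, the components C3 and C4b, the alternative pathway genes Cfb and Cfd, and the regulators Cfi and Serping1. The genes were named without a rule on their measured values, although earlier results of these data were known. Of the 9, 8 had the mean of at least 1 CPM (counts scaled to library size) required for testing, while Cfb did not.

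Complement is a cascade of plasma and tissue proteins that tags microbes, debris and damaged cells for removal. The classical pathway starts when C1q binds a target and C4 and then C3 are cleaved, and the alternative pathway amplifies C3 cleavage through factor B and factor D. Inherited variation in complement genes is a known risk factor for age-related macular degeneration, a disease of the RPE and the tissue around it.

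RNA was sequenced from single eyes of male C57BL/6 mice aged 40 weeks, either wild type or lacking SUCNR1, the receptor for succinate (SUCNR1 KO). Mice of each genotype were untreated or exposed to hydroquinone, an oxidant, and dose, route and duration are not given in the sources used here. The 16 libraries formed 4 groups of 4: wild type untreated (2 mice), wild type with hydroquinone (4 mice), knockout untreated (3 mice) and knockout with hydroquinone (4 mice). The titles thus name 13 mice, of which 3 gave both eyes, whereas the protocol speaks of 4 animals in each group; the kind of knockout allele is not described, and the RPE was picked off the choroid by hand.

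Total counts per library were between 21113549 and 35332444. All 12 RPE markers were present in every library, and their mean log2(CPM + 1) lay between 9.03 and 9.75. The same score was between 3.03 and 10.1 for rod photoreceptors, 2.62 and 9.77 for myelin, 4.60 and 6.19 for macrophages and 0.953 and 5.55 for adipocytes, so the libraries held varying amounts of RNA from other cells. In such bulk samples, fewer cells of a type and less RNA per cell cannot be told apart. Sucnr1 averaged 0.0762 CPM and was at 0 in 10 libraries, so its level did not check the genotype labels. Library identifiers came without a letter in 9 libraries and with a letter in 7, and this form is used below as a possible batch whose meaning the labels do not give.

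Promoter sequences were matched by symbol in a set of RefSeq promoters (GRCm38.p6) and found for 4 of the 9 genes, C3, Cfd, C1qb and C1qc. The other 5 had no entry in the set used here, which does not mean that RefSeq lacks them, so the 4 were not picked by their levels. Each sequence runs 5′ to 3′ on the gene's strand and ends at or before the transcript start; capitals mark matches to the motifs named below the sequences. The C1qc stretch is the 99 bases of its window that lie upstream of the longer GENCODE gene model.

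C1qb promoter, chr4:136886201-136886450, minus strand: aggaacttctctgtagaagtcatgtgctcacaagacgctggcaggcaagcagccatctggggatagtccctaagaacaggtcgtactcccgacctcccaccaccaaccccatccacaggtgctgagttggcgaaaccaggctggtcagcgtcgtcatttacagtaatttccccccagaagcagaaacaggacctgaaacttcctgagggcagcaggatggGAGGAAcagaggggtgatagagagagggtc

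C1qc promoter, chr4:136893066-136893164, minus strand: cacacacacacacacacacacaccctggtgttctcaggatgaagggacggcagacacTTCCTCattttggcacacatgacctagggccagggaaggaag

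C3 promoter, chr17:57228137-57228386, minus strand: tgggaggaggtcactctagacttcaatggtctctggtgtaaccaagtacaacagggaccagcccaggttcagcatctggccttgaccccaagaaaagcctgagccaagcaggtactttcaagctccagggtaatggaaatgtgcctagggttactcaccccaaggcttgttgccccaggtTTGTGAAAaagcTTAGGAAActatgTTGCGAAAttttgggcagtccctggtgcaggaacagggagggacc

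Cfd promoter, chr10:79890603-79890852, plus strand: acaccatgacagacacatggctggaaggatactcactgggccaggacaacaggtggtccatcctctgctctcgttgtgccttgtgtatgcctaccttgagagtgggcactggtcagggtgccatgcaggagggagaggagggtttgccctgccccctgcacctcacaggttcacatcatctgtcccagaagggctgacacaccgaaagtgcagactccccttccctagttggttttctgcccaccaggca

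The motifs, searched on both strands, were GAGGAA, a core of sites for the myeloid factor PU.1; TTNNGNAA, a loose form of the C/EBP site; and GAAA repeated after a gap of 2 bases, of the interferon response type. GAGGAA matched in C1qb, 30 to 25 bases before the start, and in C1qc as TTCCTC, 193 to 188 bases before the RefSeq start. It was present in 23.3% of 32817 promoter windows of 250 bases, which are longer than the 99 bases searched for C1qc. TTNNGNAA matched 3 times in C3, at 70 to 63, 58 to 51 and 45 to 38 bases before the start, and the last of these matched on both strands. It was present in 36.8% of the windows. The repeat of GAAA, present in 2.97% of windows, had no match in the 4 genes, and the Cfd window held none of the motifs. These are matches of letters in short windows, and no binding was measured.

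Across the 16 libraries the genes differed widely in level. Scaled to exon length, C1qb was highest at 88.6 ± 26.7 CPM per kb, followed by C1qa at 78.1 ± 21 and Serping1 at 52.1 ± 8.35 (SD, n = 16 libraries). C1qc was at 33.7 ± 10.4, C4b at 29.7 ± 10.2, Cfd at 28.6 ± 51.2 and C3 at 10.6 ± 3.79 CPM per kb. C1qa and C1qb, and likewise C1qc, C4b and Cfd, differed by less than the spread between libraries. Cfi, at 0.820 ± 0.350 CPM per kb, and Cfb, at 0.0893 ± 0.103, were far below the others. The macrophage receptor gene Csf1r stood at 42.7 ± 7.27 CPM per kb. The steadiest gene was Serping1, with a coefficient of variation of 16% over libraries, and the most variable was Cfd, with 179%.

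**Figure D1:**
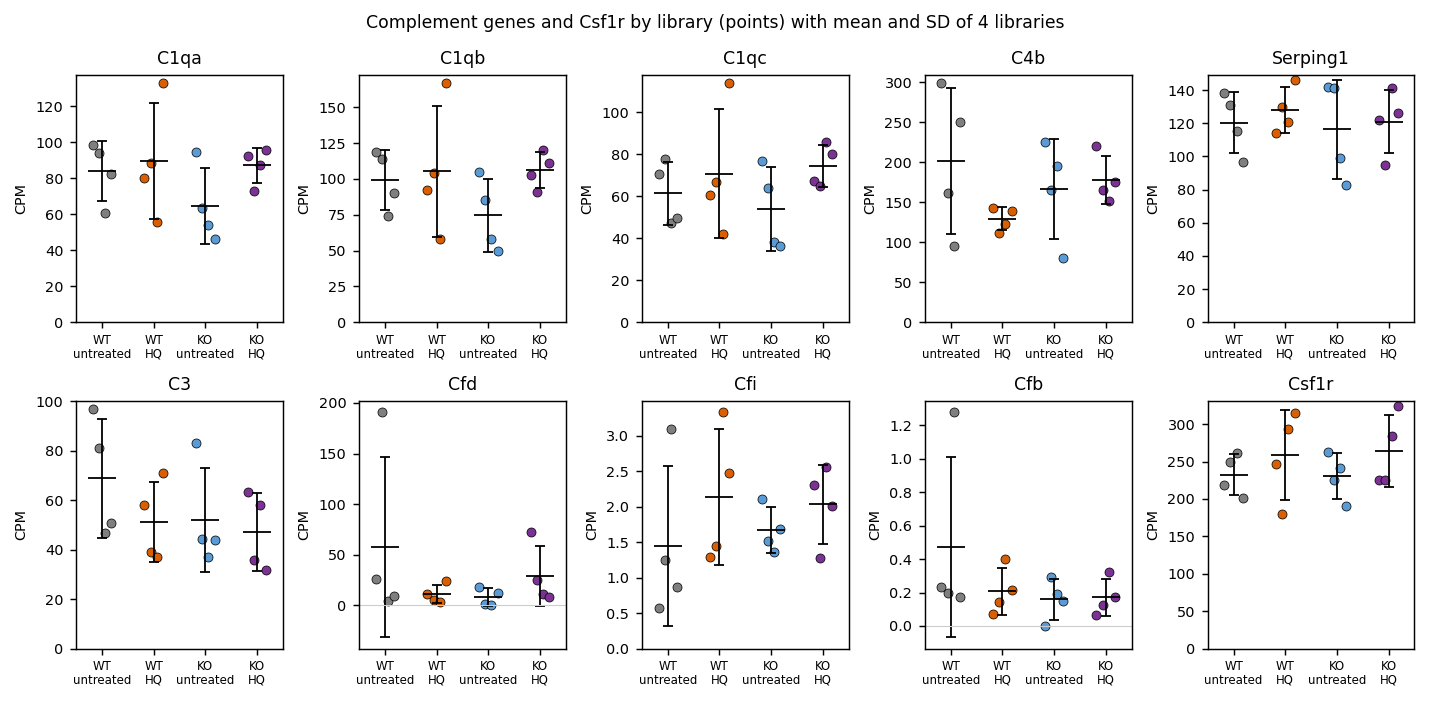
Level of each complement gene and of Csf1r in CPM (y axis, a separate linear scale per gene) in the 4 groups (x axis; WT, wild type; KO, SUCNR1 knockout; HQ, hydroquinone), with 1 point per library and bars for the mean and SD of 4 libraries. The groups overlap for every gene except C4b between the hydroquinone groups, and a single untreated wild-type library at 191 CPM stands far above the rest for Cfd.

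No complement gene passed the threshold for hydroquinone in wild type, in knockout or averaged over genotype (edgeR's quasi-likelihood test, adjusted p below 0.05 over 15380 genes). The share of all genes called was 0.0065% in wild type, 0.0455% in knockout and 0.0845% averaged, so a count of 0 among 8 genes lies near the background. The median log2 fold change of the 8 genes was 0.09 in wild type, with 5 higher and 3 lower, and 0.36 in knockout, with 7 higher and 1 lower. Over all genes tested the medians were 0.00 in each genotype. The 3 C1q genes were correlated with each other (r of 0.925 to 0.977 over 13 mice). Directions counted over the 8 genes, here and below, are therefore not independent. The share of all genes whose groups did not overlap was 2.91% in wild type and 1.91% in knockout, and 0 of the 8 were among them. None of the 8 had an unadjusted p below 0.05 in these contrasts, where 4.28%, 2.96% and 5.72% of all genes did. The contrasts within a genotype compared 4 libraries with 4 and the averaged one 8 with 8, in part from eyes of the same mouse, so p-values measure the spread between these libraries.

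C1q is the recognition protein of the classical pathway, built from the chains that C1qa, C1qb and C1qc encode, and its genes lie side by side on chromosome 4 (GRCm38, minus strand). C1qb (ENSMUSG00000036905) covers 136880129 to 136886187, C1qc (ENSMUSG00000036896) 136889804 to 136893065 and C1qa (ENSMUSG00000036887) 136895917 to 136898803. C1qa was at 98.5, 94.2, 60.8 and 82.3 CPM in untreated wild type and at 79.9, 88.5, 55.8 and 133 CPM with hydroquinone. The knockout libraries were at 94.6, 63.4, 54.2 and 46.0 CPM untreated and at 92.4, 73.0, 87.2 and 95.4 CPM with hydroquinone. The highest and lowest libraries of the wild-type hydroquinone group enclosed all untreated wild-type values, and 3 of 4 untreated knockout libraries lay below every treated knockout library.

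C1qb was at 119, 114, 74.1 and 90.0 CPM in untreated wild type and at 92.2, 104, 57.8 and 167 CPM with hydroquinone. Knockout values were 105, 85.4, 58.1 and 49.7 CPM untreated and 103, 90.7, 120 and 111 CPM with hydroquinone. C1qc averaged 61.4 ± 15.1 CPM without and 70.8 ± 30.7 CPM with hydroquinone in wild type, and 53.9 ± 19.9 and 74.5 ± 9.93 CPM in knockout (SD over 4 libraries). In all 3 subunit genes the same library, wild type with hydroquinone replicate 4, was the highest of the 16, and replicate 4 of untreated knockout was the lowest.

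With hydroquinone in wild type, the log2 fold change was 0.09 (SE 0.25) for C1qa, 0.08 (SE 0.29) for C1qb and 0.21 (SE 0.29) for C1qc. None passed, with edgeR adjusted p of 0.994, 0.995 and 0.994. Without replicate 4 of the hydroquinone group these effects were -0.17, -0.23 and -0.12. In knockout the values were 0.43 (SE 0.25), 0.51 (SE 0.29) and 0.47 (SE 0.30), with an edgeR adjusted p of 1.00 for each. The 95% intervals in knockout went from -0.11 to 0.97 for C1qa, from -0.10 to 1.12 for C1qb and from -0.16 to 1.10 for C1qc. Leaving out each library gave 0.29 to 0.67 for C1qa, 0.34 to 0.72 for C1qb and 0.30 to 0.69 for C1qc. The interaction, the difference between these effects, was 0.34 (SE 0.36), 0.43 (SE 0.40) and 0.26 (SE 0.42) and missed the threshold in all (edgeR adjusted p = 1.00).

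Over 13 mice, C1qb and C1qc were correlated with a macrophage marker score, and C1qa missed the threshold (r of 0.840, 0.901 and 0.791, adjusted permutation p = 0.0216, 0.0054 and 0.0506). None of the 3 passed without the 2 mice farthest from the median score (adjusted permutation p = 0.428, 0.304 and 0.595). All 12 markers other than Csf1r were above 0 in every library, and their summed level was 1345.5 to 2667.4 CPM in untreated wild type and 2089.7 to 4220.3 CPM with hydroquinone. It was 1120.0 to 2932.8 CPM in untreated knockout and 2202.4 to 3360.5 CPM in knockout with hydroquinone. With the macrophage score as a covariate, an alternative added after seeing the data, the C1q effects in knockout were 0.19, 0.22 and 0.14 for C1qa, C1qb and C1qc. In wild type they were -0.11, -0.17 and -0.06, against the positive values without the covariate. With Csf1r, a planned covariate, in place of the score, the wild-type effects were 0.023, 0.006 and 0.109 in the same order.

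The proportions of the subunit genes varied less than their summed level. The ratio of C1qa to C1qb counts was 0.853 ± 0.0683, from 0.725 to 0.965 (SD over 16 libraries). That of C1qb to C1qc was 1.48 ± 0.129, from 1.33 to 1.81, and that of C1qa to C1qc was 1.27 ± 0.162, from 0.989 to 1.66. Over the same libraries the summed C1q level went from 132 to 414 CPM. Over 13 mice, Pearson's r of log2(CPM + 1) was 0.970 between C1qa and C1qb, 0.977 between C1qb and C1qc and 0.925 between C1qa and C1qc. These r are descriptions, and the genes share library and depth.

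C3 (ENSMUSG00000024164, chromosome 17, 57203970 to 57228136, minus strand) is the central component on which all activation routes converge. It was at 96.8, 80.9, 46.5 and 50.8 CPM in untreated wild type and at 57.9, 39.2, 36.8 and 70.9 CPM with hydroquinone. Knockout libraries had C3 at 83.2, 44.1, 37.1 and 43.9 CPM untreated and at 63.1, 35.6, 57.9 and 31.6 CPM with hydroquinone. The high untreated wild-type values came from both eyes of 1 mouse, and all groups overlapped. The log2 fold change with hydroquinone was -0.43 in wild type (SE 0.32, 95% interval -1.12 to 0.27, edgeR adjusted p = 0.994). It was -0.21 without untreated wild-type replicate 1. With covariates added after seeing the data it was -0.10 (adipocyte score) and -0.58 (macrophage score). In knockout it was -0.15 (SE 0.32, 95% interval -0.84 to 0.55, edgeR adjusted p = 1.00), and from -0.32 to 0.18 when each library was left out. The same covariates gave -0.31 and -0.40 in knockout.

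C4b (ENSMUSG00000073418, chromosome 17, 34728380 to 34743882, minus strand) encodes component C4, which C1-bound proteases cleave next. Untreated wild-type libraries were at 299, 162, 94.9 and 251 CPM and those with hydroquinone at 143, 112, 123 and 139 CPM. Untreated knockout libraries were at 226, 166, 195 and 80.7 CPM and those with hydroquinone at 220, 165, 152 and 175 CPM. The wild-type hydroquinone group was the narrowest and lowest, at 129 ± 14.5 CPM against 202 ± 91.1 CPM untreated (SD over 4 libraries), but it lay inside the untreated range. The log2 fold change, -0.65 (SE 0.32, 95% interval -1.33 to 0.04), missed the threshold (edgeR adjusted p = 0.994, unadjusted p = 0.062). Without untreated wild-type replicate 1 it was -0.39. In knockout it was 0.10 (SE 0.32, 95% interval -0.58 to 0.78, edgeR adjusted p = 1.00). The interaction was 0.74 (SE 0.45, 95% interval -0.22 to 1.70, edgeR adjusted p = 1.00).

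Under hydroquinone, the knockout libraries of C4b (152 to 220 CPM) all lay above the wild-type ones (112 to 143 CPM). This was the only contrast in which the groups did not overlap for any of the 8 tested genes, and 2.33% of all genes had none there. The difference was 0.46 on the log2 scale (SE 0.32, 95% interval -0.22 to 1.14) without reaching the threshold (edgeR adjusted p = 1.00). At an unadjusted p below 0.05 none of the 8 genes differed there, against 4.18% of all genes. C4b shares 34.6% of its 50-base transcript windows with its near copy C4a, so its reads are in part uncertain. C4a itself averaged 0.546 CPM.

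Eyes of the same mouse differed in C4b. In untreated wild type, 1 mouse gave 299 and 162 CPM and the other 94.9 and 251 CPM. The myelin gene Mog differed in the same direction in these 2 pairs, at 94.4 and 23.8 CPM and at 0.618 and 47.9 CPM. The untreated knockout mouse with both eyes had C4b at 226 and 195 CPM and Mog at 39.8 and 40.6 CPM, with no such match. The summed level of the 5 myelin markers was 136 to 9717.9 CPM without and 127 to 1817 CPM with hydroquinone in wild type. In knockout these ranges were 411 to 5050.4 and 119 to 5648.3 CPM. Mog was at 0 in 2 libraries. The part of myelin RNA in the C4b differences was not tested.

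Factor B, encoded by Cfb (ENSMUSG00000090231, chromosome 17, 34856374 to 34862518, minus strand), supplies the protease of the alternative C3 convertase. It was nearly undetected, with 7, 5, 31 and 4 counts in untreated wild type and 2, 5, 10 and 5 with hydroquinone. Knockout libraries held 0, 9, 6 and 4 counts untreated and 2, 3, 10 and 4 with hydroquinone. Of the 107 counts in all, 31 came from untreated wild-type replicate 3, whose other eye had 4. Cfb was left out of the main test, and no fold change is given at these counts. Cfb shares 73.0% of its 50-base windows with Gm20547, an overlapping gene model on the same strand that is listed at 0 in all 16 libraries, and how reads common to both were counted is not given in the sources used here, so its level is uncertain.

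Cfd (ENSMUSG00000061780, chromosome 10, 79890853 to 79892655, plus strand) encodes factor D, also known as adipsin, which cleaves factor B and is made in quantity by fat cells. It was at 26.0, 191, 4.41 and 9.16 CPM in untreated wild type and at 11.2, 5.62, 2.94 and 23.5 CPM with hydroquinone. Among knockout libraries it stood at 18.2, 1.34, 0.0645 and 12.2 CPM untreated and at 72.5, 24.5, 10.8 and 8.16 CPM with hydroquinone. The value of 0.0645 CPM stood for 2 counts. A single library, untreated wild-type replicate 2, held 4878 of the 11153 Cfd counts, and all groups overlapped.

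The log2 fold change of Cfd with hydroquinone was -2.42 in wild type (SE 1.29, 95% interval -5.18 to 0.34, edgeR adjusted p = 0.994). With a random block for the mouse it was -1.30 (limma adjusted p = 1.00); untreated wild type held both eyes of 2 mice. The knockout value was 1.88 (SE 1.28, 95% interval -0.85 to 4.60, edgeR adjusted p = 1.00). The interaction was 4.29 (SE 1.82) and the difference of untreated knockout from untreated wild type was -2.87 (SE 1.32). These were the only results for the 8 genes with an unadjusted p below 0.05, at 0.0323 and 0.0465, and neither reached the threshold (edgeR adjusted p = 1.00). Of all genes, 1.92% had such a p in the interaction and 1.32% in the untreated comparison, and 0.0% passed in each. Without untreated wild-type replicate 2, the wild-type hydroquinone effect was -0.29, the untreated genotype difference -0.74 and the interaction 2.16. Without replicate 1 of knockout with hydroquinone, the knockout effect was 0.87.

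Adipocyte markers were high where Cfd was high. The 6 markers summed to 44.7 to 463 CPM without and 25.2 to 129 CPM with hydroquinone in wild type, and to 22.9 to 114 and 36.2 to 221 CPM in knockout. Adipoq, the fat cell hormone adiponectin, was above 0 in every library, while Lep was at 0 in 2 libraries and Retn in 1. In the mouse whose right eye had 26.0 CPM of Cfd and left eye 191 CPM, Adipoq was at 8.01 and 52.8 CPM. In the untreated knockout mouse with 18.2 and 0.0645 CPM, Adipoq was at 9.01 and 0.387 CPM. With the adipocyte score as a covariate, an alternative added after seeing the data, the Cfd effect was 0.26 in wild type and 1.05 in knockout, the untreated genotype difference was -0.42 and the interaction was 0.79.

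Among the regulators, Cfi (ENSMUSG00000058952, chromosome 3, 129835884 to 129875332, plus strand) encodes factor I, the protease that inactivates C3b and C4b. It was low, at 0.574, 1.25, 3.09 and 0.873 CPM in untreated wild type and at 1.29, 1.44, 3.34 and 2.47 CPM with hydroquinone. Knockout libraries had Cfi at 2.11, 1.51, 1.36 and 1.68 CPM untreated and at 2.30, 1.27, 2.56 and 2.01 CPM with hydroquinone. Libraries held 17 to 84 Cfi counts, so counting error adds to its spread, and the groups overlapped. The log2 fold change with hydroquinone was 0.56 in wild type (SE 0.47, 95% interval -0.44 to 1.56, edgeR adjusted p = 0.994). It was 0.26 without replicate 3 of that hydroquinone group, 0.29 without untreated wild-type replicate 1 and 1.24 without untreated wild-type replicate 3. In knockout the change was 0.30 (SE 0.47, 95% interval -0.70 to 1.29, edgeR adjusted p = 1.00). The knockout value was 0.02 with Csf1r as a covariate and 0.15 to 0.46 when each library was left out. In limma on log2(CPM + 1) with a random block for the mouse it was 0.18.

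Serping1 (ENSMUSG00000023224, chromosome 2, 84765387 to 84775444, minus strand) encodes the C1 inhibitor, which blocks the proteases bound to C1q. It was at 138, 131, 115 and 96.7 CPM in untreated wild type and at 114, 130, 121 and 146 CPM with hydroquinone. Knockout libraries had Serping1 at 142, 141, 99.0 and 82.8 CPM untreated and at 122, 95, 141 and 126 CPM with hydroquinone. The highest library exceeded the lowest 1.77-fold, the narrowest range of the 9 genes. The log2 fold change with hydroquinone was 0.09 in wild type (SE 0.18, 95% interval -0.29 to 0.47, edgeR adjusted p = 0.994). The knockout value was 0.06 (SE 0.18, 95% interval -0.32 to 0.44, edgeR adjusted p = 1.00), so the intervals reached up to a 1.38-fold rise in wild type and a 1.35-fold rise in knockout.

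**Figure D2:**
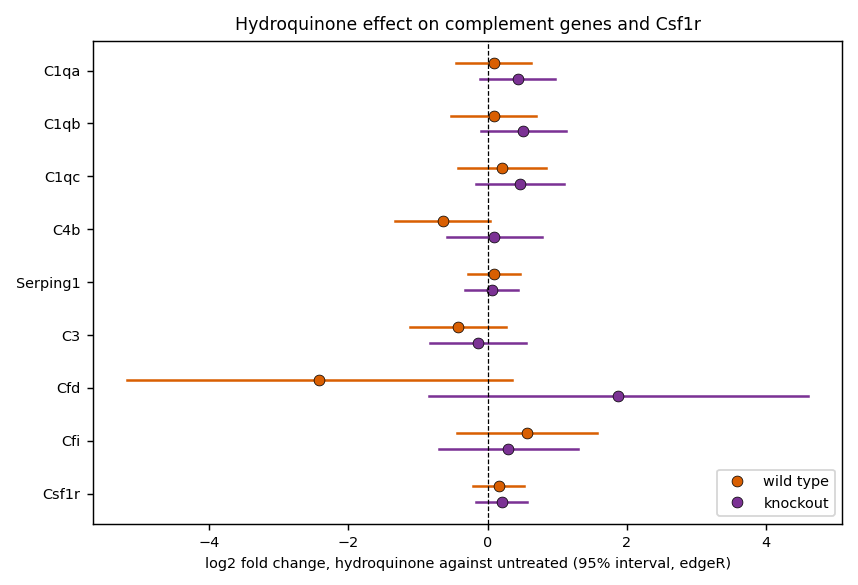
Log2 fold change of hydroquinone against untreated (x axis) for the 8 tested complement genes and Csf1r (y axis), in wild type (orange) and knockout (purple); points are edgeR estimates and lines their 95% intervals, from 4 libraries against 4. Every interval includes 0, and those of Cfd, from -5.18 to 0.34 and from -0.85 to 4.60, are the widest.

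Between genotypes no complement gene passed, in untreated mice, under hydroquinone or averaged over treatment (edgeR, smallest adjusted p of 1.00, 1.00 and 0.987). The share of all genes called was 0.0% in each. In untreated mice the 8 log2 fold changes had a median of -0.33, with 1 higher and 7 lower in knockout, against 0.01 over all genes, and lay between -2.87 (Cfd) and 0.20 (Cfi). Under hydroquinone the median was -0.01, with 4 higher and 4 lower, between -0.12 (C3) and 1.42 (Cfd), against 0.02 over all genes. The untreated contrast and the knockout hydroquinone contrast share the untreated knockout libraries. Averaged over treatment the median was -0.13, against 0.02 over all genes. The interaction had a median of 0.31 over the 8 genes, with 6 higher and 2 lower, against 0.00 over all genes, and no gene passed.

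Other genes of the system were counted from a list of 48, of which 47 were matched and 29 reached the level for testing. The most abundant per length was Clu, the terminal pathway regulator clusterin, at 1132.3 CPM per kb, and Vtn, the vitronectin gene, was at 51.3. The terminal components C6, C8a, C8b and C9, and Hc, which encodes C5, lay below the level for testing, while C7 averaged 4.63 CPM. None of the 29 passed in any of the 7 contrasts (edgeR, smallest adjusted p 0.864). At an unadjusted p below 0.05, 0 of the 29 differed with hydroquinone in wild type, 3 were higher in knockout and 3 higher averaged, against 4.28%, 2.96% and 5.72% of all genes in either direction. Between genotypes, 2 were lower in untreated knockout, 0 differed under hydroquinone and 2 were lower averaged, and 1 was higher in the interaction, against 1.32%, 4.18%, 2.96% and 1.92% of all genes.

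C5ar1, the receptor for the peptide C5a, was at 4.66 ± 1.12 CPM in untreated wild type and 1.94 ± 0.665 CPM in untreated knockout, and at 3.82 ± 1.87 and 3.93 ± 0.836 CPM under hydroquinone (SD over 4 libraries). Its untreated libraries did not overlap between genotypes, at 3.05 to 5.48 against 1.32 to 2.88 CPM, as was so for 1.05% of all genes, and C5ar1 was named for its small p. The untreated difference was -1.26 on the log2 scale (SE 0.35, edgeR unadjusted p = 0.00237, adjusted p = 1.00), the hydroquinone effect in knockout 1.02 (SE 0.34, adjusted p = 1.00) and the interaction 1.31 (SE 0.48, adjusted p = 1.00). C7, of the membrane attack complex, was at 6.48 ± 3.23 CPM in untreated wild type and 2.60 ± 1.09 CPM in untreated knockout. That difference was -1.32 (SE 0.38, edgeR adjusted p = 1.00). Other genes with the smallest p of a contrast also missed the threshold. Cd59a, which blocks the membrane attack complex, had a log2 fold change of -0.25 (SE 0.14) and Cpn1, of the anaphylatoxin-cleaving carboxypeptidase N, of 0.62 (SE 0.39) with hydroquinone in wild type (edgeR adjusted p = 0.994 for both). Itgb2, the beta chain of the integrin complement receptors, had a value of 0.53 (SE 0.23) with hydroquinone averaged over genotype (edgeR adjusted p = 0.868). Under hydroquinone, the log2 fold change of knockout against wild type was 0.47 (SE 0.24) for Colec12, a scavenger receptor, and -0.68 (SE 0.37) for Itgam, an alpha chain of those receptors (edgeR adjusted p = 1.00 for both). C1rl, a relative of the C1r protease, was at 4.85 ± 1.83 CPM in untreated knockout and 8.65 ± 1.09 CPM with hydroquinone, a change of 0.83 on the log2 scale (SE 0.27, edgeR adjusted p = 1.00).

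Csf1r, the receptor through which macrophages receive their survival signal, was set beside each gene as the measure of macrophage content. It was at 218, 249, 261 and 201 CPM in untreated wild type and at 247, 180, 293 and 315 CPM with hydroquinone. Knockout libraries had Csf1r at 263, 226, 242 and 191 CPM untreated and at 226, 225, 284 and 324 CPM with hydroquinone. The groups overlapped, and the log2 fold change with hydroquinone was 0.16 in wild type (SE 0.17, edgeR adjusted p = 0.994) and 0.20 in knockout (SE 0.17, edgeR adjusted p = 1.00).

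Over 13 mice, with eyes of a mouse averaged on the log2(CPM + 1) scale, no complement gene was correlated with Csf1r past the threshold (permutation tests, 100000 resamples, 2-sided, Benjamini-Hochberg over 9 relations). Cfi came first, with Pearson's r = 0.569 and Spearman's rho = 0.599 (permutation p = 0.0427 and 0.0348, adjusted p = 0.319 and 0.313). Without the 2 mice farthest from the median Csf1r its r was 0.542. C1qc followed at r = 0.471 and rho = 0.374 (permutation p = 0.103 and 0.209, adjusted p = 0.319 and 0.427) and Serping1 at r = 0.469 and rho = 0.352 (permutation p = 0.106 and 0.237, adjusted p = 0.319 and 0.427). C1qa had r = 0.420 and rho = 0.352 (permutation p = 0.151 and 0.237, adjusted p = 0.322 and 0.427). C1qb had r = 0.397 and rho = 0.352 (permutation p = 0.179 and 0.237, adjusted p = 0.322 and 0.427). Without the 2 farthest mice, r was 0.132, 0.0532 and 0.0652 for C1qc, C1qa and C1qb, and 0.366 for Serping1, so the C1q values rested on those mice.

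The remaining genes showed less. C4b had r = 0.290 and rho = 0.165 (permutation p = 0.339 and 0.589, adjusted p = 0.509 and 0.709) and Cfb r = 0.181 and rho = 0.275 (permutation p = 0.560 and 0.363, adjusted p = 0.720 and 0.545). C3 had r = 0.0503 and rho = 0.148 (permutation p = 0.869 and 0.630, adjusted p = 0.880 and 0.709). Cfd had r = -0.0459 and rho = -0.0989 (permutation p = 0.880 and 0.751, adjusted p = 0.880 and 0.751). Without the 2 farthest mice these were 0.361, 0.310, 0.187 and -0.139 in the same order.

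Within the identifier forms the C1q relations with Csf1r took opposite signs. Among the 9 libraries without a letter r was -0.523 for C1qa, -0.671 for C1qb and -0.584 for C1qc, and among the 7 with a letter it was 0.731, 0.759 and 0.830. Serping1 gave -0.103 and 0.867, and C4b -0.118 and 0.149. Cfi kept its sign, at 0.633 and 0.711, as did Cfb, at 0.325 and 0.434, and C3, at 0.035 and 0.042, while Cfd gave -0.178 and 0.081. None passed within a form.

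Csf1r itself was closer to the RPE markers than to the macrophage markers. Over 13 mice its r with the RPE score was 0.862 and rho 0.808 (permutation p = 0.00016 and 0.00139, adjusted p = 0.0024 and 0.0208 over 15 scores), and r was 0.895 without the 2 mice farthest from the median score. With the macrophage score r was 0.613 and rho 0.445 (permutation p = 0.0245 and 0.130, adjusted p = 0.123 and 0.389), and r was 0.298 without the 2 farthest mice. Within the forms without and with a letter, r was 0.739 and 0.955 for the RPE score and -0.071 and 0.870 for the macrophage score. The difference between these relations was not tested. The gene model of Csf1r overlaps that of Hmgxb3, on the opposite strand, by 873 bases. The strand setting is not given in the sources used here, so part of the Csf1r count may be uncertain. The tested genes most like Csf1r were Inpp5k (r = 0.960), Epdr1 (r = 0.954) and Cat (r = 0.941), against r = 0.786 for the macrophage gene Adgre1 and 0.479 for Lyz2.

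**Figure D3:**
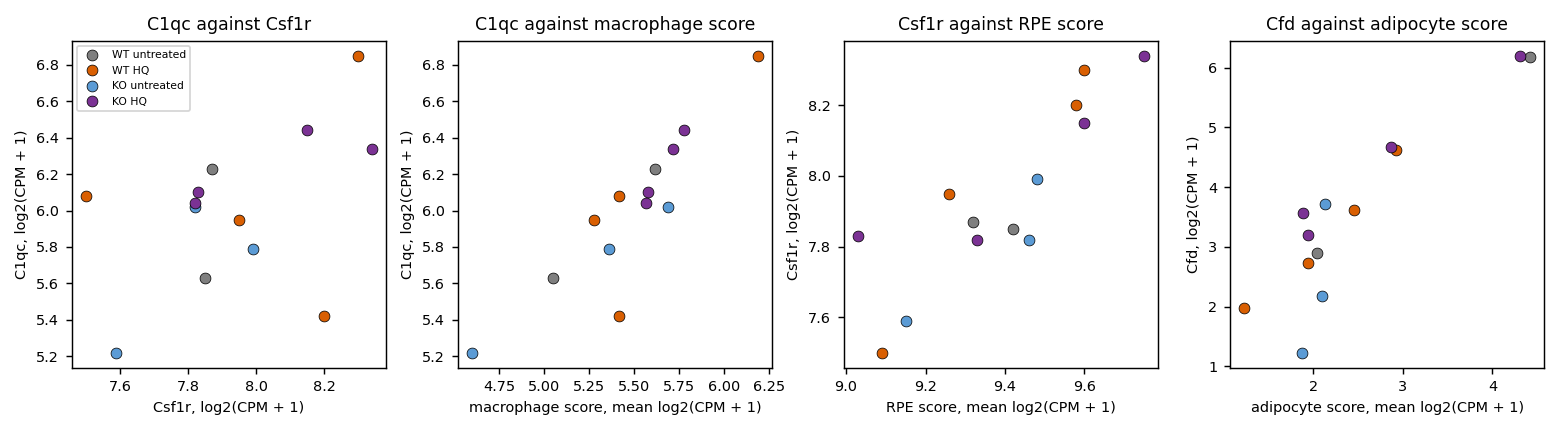
Values of 13 mice (points, coloured by group; WT, wild type; KO, knockout; HQ, hydroquinone) on log2(CPM + 1) scales: C1qc against Csf1r, C1qc against the mean of 12 macrophage markers, Csf1r against the mean of 12 RPE markers and Cfd against the mean of 6 adipocyte markers. C1qc scatters against Csf1r (r = 0.471) and rises with the macrophage score (r = 0.901), Csf1r rises with the RPE score (r = 0.862), and 2 mice lie apart at the upper end of the adipocyte plot (r = 0.909).

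Each tested gene was also set beside 15 marker scores, a family of 120 relations in which 4 passed by Pearson's r, and by Spearman's rho these and C1qa with the B and plasma cell score. An unadjusted permutation p below 0.05 for r was found in 23. With the macrophage score, C1qc had r = 0.901 and rho = 0.901 (permutation p = 9e-05 and 7e-05, adjusted p = 0.0054 and 0.0084). C1qb had r = 0.840 and rho = 0.808 (permutation p = 0.00063 and 0.00146, adjusted p = 0.0216 and 0.035), and Serping1 r = 0.820 and rho = 0.852 (permutation p = 0.00072 and 0.00042, adjusted p = 0.0216 and 0.0126). C1qa, at r = 0.791 and rho = 0.676 (permutation p = 0.00211 and 0.0139), did not pass over this family (adjusted permutation p = 0.0506 and 0.151). Its r passed with a pseudocount of 0.1 (adjusted permutation p = 0.0494), with group means removed (0.0385) and without any 1 of 6 libraries, untreated wild-type replicates 1, 2 and 4 and untreated knockout replicates 1, 2 and 3 (r of 0.782 to 0.864). With the score of 4 B and plasma cell markers, which summed to 2.58 to 8.97 CPM, C1qa had r = 0.741 and rho = 0.863 (permutation p = 0.00344 and 0.00035, adjusted p = 0.0525 and 0.0126). That r was 0.766 without the 2 farthest mice and 0.810 and 0.680 within the forms without and with a letter. It passed without replicate 4 of wild type with hydroquinone (0.830) or untreated knockout replicate 1 (0.782) or 3 (0.738). Leaving out replicate 4 of wild type with hydroquinone, replicate 4 of untreated knockout or replicate 3 of knockout with hydroquinone ended the call of C1qb (r = 0.767, 0.740 and 0.830) and of Serping1 (r = 0.798, 0.661 and 0.808). Without the 2 mice farthest from the median score r was 0.755 for C1qc, 0.531 for C1qb, 0.568 for Serping1 and 0.360 for C1qa, and none passed. Without and with a letter r was 0.687 and 0.995 for C1qc, 0.437 and 0.961 for C1qb, 0.479 and 0.976 for Serping1 and 0.437 and 0.926 for C1qa. C3 and Cfi had r of 0.255 and 0.219 with the macrophage score over 13 mice. With the fibroblast score, Serping1 had r = 0.742 and rho = 0.758 (permutation p = 0.00342 and 0.00411, adjusted p = 0.0525 and 0.0705). Without the 2 farthest mice this r was 0.569. C3 had r = 0.694 with microglia and 0.685 with adipocytes (adjusted permutation p = 0.107 for both). Cfi had r = 0.654 with endothelium and -0.663 with corneal epithelium (adjusted permutation p = 0.133 and 0.129).

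Cfd passed with the adipocyte score, at r = 0.909 and rho = 0.874 (permutation p = 2e-05 and 0.00018, adjusted p = 0.0024 and 0.0108). Its r was 0.782 without the 2 farthest mice, where it no longer passed (adjusted permutation p = 0.304), and 0.935 and 0.943 within the forms without and with a letter. C4b was nearest to the microglia score (r and rho of 0.742, permutation p = 0.0035 and 0.00501, adjusted p = 0.0525 and 0.0751) and passed with none of the scores. Within the forms without and with a letter this r was 0.943 and 0.735. It passed with group means removed (adjusted permutation p = 0.0385) and without any 1 of 5 libraries, untreated wild-type replicates 2, 3 and 4 and untreated knockout replicates 3 and 4 (r of 0.751 to 0.816). With the myelin score its r was 0.654 and rho 0.714 (permutation p = 0.014 and 0.00783, adjusted p = 0.129 and 0.104). Without untreated knockout replicate 4 this r was 0.828 and passed (adjusted permutation p = 0.0298). Within the forms without and with a letter, its r with the myelin score was 0.929 and 0.520.

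**Figure D4:**
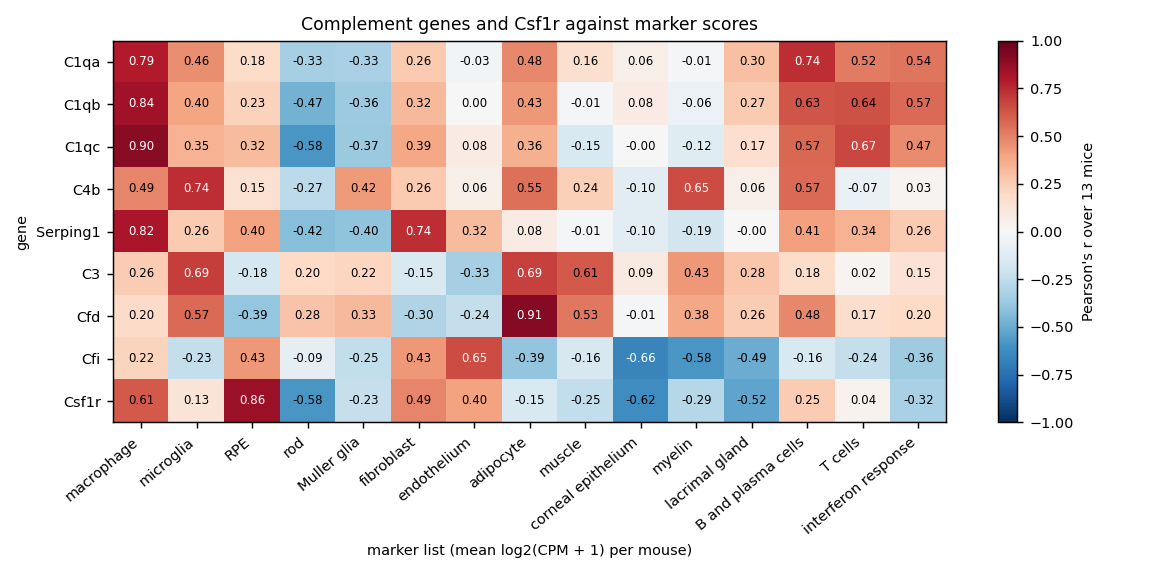
Pearson's r over 13 mice between each tested complement gene or Csf1r (rows) and the mean log2(CPM + 1) of 15 marker lists (columns), from blue (-1) to red (1). The C1q genes and Serping1 are reddest in the macrophage column (0.791 to 0.901), Cfd in the adipocyte column (0.909) and Csf1r in the RPE column (0.862).

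The genes whose levels were most like each complement gene over the 13 mice differed from gene to gene. For C1qa they were C1qb (r = 0.970), Ncf1 (r = 0.962), a subunit of the phagocyte oxidase, and Pld4 (r = 0.927). For C1qb and C1qc, Ncf1 followed the other C1q genes at r = 0.967 and 0.959, and Tyrobp, a myeloid signalling adaptor, stood at 0.951 with C1qc. For Cfd they were Adipoq (r = 0.917), Hp (r = 0.911), the haptoglobin gene, and A530016L24Rik (r = 0.905). C4b was closest to Zcchc24 (r = 0.938), Aspa (r = 0.917) and Rab31 (r = 0.917), and Serping1 to Lat2 (r = 0.907), Arhgap25 (r = 0.894) and Omd (r = 0.884). C3 was closest to Fxyd6 (r = 0.811), Crat (r = 0.803) and Coq10a (r = 0.784), and Cfi to 6430550D23Rik (r = 0.880), Nmb (r = 0.876) and Zik1 (r = 0.863). These r are the highest over all 15380 genes tested and are given with no test.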

How the data were processed

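RNA-seq of hand-lifted RPE was analysed from the table the authors deposited, which holds whole-number read counts per Ensembl gene, although its name announces FPKM. Per the submitters' processing notes, mm10, STAR, Cufflinks and DESeq2 were used; versions, roles and the strand setting are not given in the sources used here. Counts were scaled to CPM with TMM library sizes. The 15380 genes averaging 1 CPM or more (99.8% of counts) were tested with edgeR 4.0.16 (quasi-likelihood F test, 16 libraries in 1 model of 4 groups, R 4.3.3), with Benjamini-Hochberg adjustment over all genes and a threshold of 0.05. Symbols and coordinates came from GENCODE vM21 (GRCm38), which matched 51719 of 51912 identifiers.

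Groups follow the titles, and replicate numbers follow accession order. In edgeR each eye was its own library; the consensus correlation of eyes from 1 mouse was -0.020 (limma 3.58.1). Nothing but the titles says which libraries share an animal, so p-values measure the spread between these libraries. Correlations used log2(CPM + 1) averaged per mouse, with permutation tests of 100000 resamples (scipy 1.17.1). Marker scores are the mean log2(CPM + 1) of a fixed list. The edgeR step was tested on simulated data. Alternatives included DESeq2 1.42.0, other scaling and filters, summed eyes, the mouse as a block, covariates and leaving out each library.

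The genes, lists and tests were chosen with earlier results of these data known. The text names the 9 genes, Csf1r, for each contrast those other complement genes with the smallest p that did not pass (2 at most), and the 3 genes most like each. Promoters came from RefSeq (GRCm38.p6).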

Additional observations from a re-analysis of the deposited data

Results flagged for a closer look

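Over 48 sets of 4 libraries, 2 values lay far from the rest of their group by Dixon's ratio, past its 95% critical value, and chance gives 2.4. Cfb was high in untreated wild-type replicate 3, at 1.19 on the log2(CPM + 1) scale when its group otherwise spanned 0.232 to 0.306 (ratio 0.922), and its 31 counts are few. The macrophage score was high in replicate 4 of the wild-type hydroquinone group, at 6.19 where its group otherwise spanned 5.28 to 5.42 (ratio 0.849), and the C1q genes were at their highest in this library.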

How the results depend on the processing

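In all 7 contrasts the number of complement genes called stayed at 0 under every alternative run, leave-one-out fits included (0 to 0). For each shift below the cause was not tested. The hydroquinone effect changed sign in wild type with the macrophage score as covariate for C1qa (-0.113), C1qb (-0.167), C1qc (-0.059) and Serping1 (-0.035), with the rod score for C1qb (-0.014) and with the adipocyte score for Cfd (0.263). In knockout it did so with the macrophage score for C4b (-0.024) and Serping1 (-0.139) and with Csf1r for Serping1 (-0.023). Leaving out each library gave, in wild type, -0.168 to 0.258 for C1qa, -0.232 to 0.285 for C1qb, -0.121 to 0.391 for C1qc and -0.001 to 0.162 for Serping1. In knockout it gave -0.319 to 0.175 for C3, -0.145 to 0.278 for C4b and -0.091 to 0.167 for Serping1. For r with Csf1r it gave -0.123 to 0.341 for C3 and -0.16 to 0.058 for Cfd. The number of genes correlated with Csf1r, 0, was 4 with the macrophage score in its place, adjusted over 9 relations (C1qa 0.791, C1qb 0.840, C1qc 0.901, Serping1 0.820), where Cfb was -0.066 and Cfd 0.195. Among libraries without a letter r with Csf1r was -0.118 for C4b, -0.523 for C1qa, -0.671 for C1qb, -0.584 for C1qc and -0.103 for Serping1, and r of Csf1r with the macrophage score was -0.071; with a letter Cfd was 0.081. Leaving out untreated knockout replicate 4 gave r with the macrophage score of 0.740 for C1qb and 0.661 for Serping1, neither past the threshold. Without wild type with hydroquinone replicate 4 or knockout with hydroquinone replicate 3 these missed it too, at 0.767 and 0.830 for C1qb and 0.798 and 0.808 for Serping1. Counting error limits Cfb and Cfi most. No paired comparison of groups was possible, because by the titles each mouse gave libraries to a single group. The replicate numbers come from accession order and tie no samples together.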
